A study of Mus musculus with 20 samples.

Results

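The genes described here encode lysosomal hydrolases, their activators, lysosomal membrane proteins and sorting receptors, as measured in microglia, the macrophages that live in brain tissue. They were taken from a list of 41 genes that leaves out cathepsins and the proton pump, with the probe set of highest mean level standing for each gene among probe sets annotated to that gene alone. Such a probe set existed for 40 of the 41 genes, out of 19751 genes in the table. The only probe set for M6pr, a mannose 6-phosphate receptor, is shared with the pseudogene M6pr-ps and was not used. After a filter on low values, 39 of the 41 genes were tested among 12728 genes. The gene that did not pass was Igf2r, the other mannose 6-phosphate receptor, which lay between 3.10 and 3.96 on the log2 scale and rose above the low-value limit on 0 arrays.

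Microglia were sorted from brains of littermates aged 8.5 months, after perfusion with PBS and dissociation with a kit, and their RNA (2 ng per sample) was hybridised to one-colour arrays. The design crosses loss of Trem2, a lipid-sensing receptor of microglia, with the 5XFAD transgenes, human amyloid precursor protein and presenilin 1 genes with familial Alzheimer's disease mutations. These transgenes are driven by a neuronal promoter, so they are expressed mainly by neurons and not by the microglia measured here. There were 4 arrays of WT mice, which carry neither change, and 4 of Trem2-/- mice, which lack Trem2 and have no transgene. A further 5 arrays came from 5XFAD mice with Trem2 intact and 6 from Trem2-/-5XFAD mice, which carry the transgenes and lack Trem2. One more array bears a WT title and a Trem2-/- genotype and entered no group. The gate used for sorting and the sex are not stated in these sources. The labels do not say how separate the samples of a genotype were beyond being littermates, so p-values cover the spread among these arrays, part of which may be technical.

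Lysosomes break down glycans, lipids, proteins and nucleic acids with acid hydrolases, most of which reach them by way of the mannose 6-phosphate receptors or of sortilin. Inherited loss of a single hydrolase, such as hexosaminidase or beta-galactosidase, leads to a storage disease, often with damage to the brain and activated microglia. The transcription factor TFEB and its relatives bind an extended E-box in the promoters of many lysosomal genes, and microglia depend on their lysosomes to digest myelin, dead cells and amyloid.

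The promoter words that TFEB-type factors are known to bind are printed for members whose levels are followed below, since they are the sequence feature the lysosomal genes are best known to share. The windows searched run from 250 bases before to 50 bases after each start in RefSeq (GRCm38.p6), and were given for 35 of the 41 genes. The core E-box CACGTG, which is its own reverse complement, was present in windows of 10 of the 35 genes (28.6%), against 2187 of 27025 genes with a window (8.09%). The longer word GTCACGTG or its reverse complement CACGTGAC, both of which contain the core, was present for 9 of 35 members (25.7%) against 689 of all 27025 genes (2.55%). Those 9 genes were Glb1, Gla, Naglu, Arsa, Sgsh, Lamp1, Mcoln1, Cln3 and Igf2r. The lines below show 30 bases around a match, written 5′ to 3′ along the strand of the gene, with the matching word in capitals. For Glb1 the bases are chr9:114401017-114401046 on the plus strand, for Gla chrX:134601183-134601212 on the minus strand, for Sgsh chr11:119355521-119355550 on the minus strand, for Lamp1 chr8:13159122-13159151 on the plus strand, and for Cln3 chr7:126583341-126583370 on the minus strand.
Glb1: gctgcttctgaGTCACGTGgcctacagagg
Gla: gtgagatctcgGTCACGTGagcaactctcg
Sgsh: ggcctgccgtgCACGTGACcgtggggagcg
Lamp1: atgccgactggCACGTGACcacatcacgtg
Cln3: tcacgggtactGTCACGTGACccccaacct
Glb1 and Gla had among the largest increases of these genes in 5XFAD microglia, Sgsh had the largest decrease, and Lamp1 and Cln3 passed the test in none of the comparisons, although all 5 windows hold the word.

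The targeted gene checked the labels. Trem2 read 11.14 to 11.39 in WT and 11.45 to 11.80 in 5XFAD arrays, and 6.84 to 7.02 in Trem2-/- and 6.75 to 7.60 in Trem2-/-5XFAD arrays. All 11 microglial markers with a probe set, among them Cx3cr1, P2ry12 and Tmem119, were above the low-value limit on 19 of 19 arrays. Their mean level was lower in 5XFAD (10.65 to 10.81) than in WT (11.11 to 11.37), Trem2-/- (11.10 to 11.20) and Trem2-/-5XFAD arrays (11.01 to 11.07). Astrocyte markers had a mean of 5.36 to 5.77 in 5XFAD arrays, above the 4.99 to 5.11 of WT and the 4.97 to 5.27 of Trem2-/-5XFAD. Of the 7 tested in 5XFAD against WT, 2 were higher and 1 lower, with differences of -0.73 to 2.16. Lymphocyte markers were at 3.96 to 4.08 in 5XFAD, below the 4.30 to 4.66 of WT and the 4.21 to 4.53 of Trem2-/-5XFAD arrays. Of 9 lymphocyte markers with a probe set 4 passed the low-value filter, and of 8 monocyte markers 4. Both means thus include genes near the floor. Monocyte markers had a mean of 4.07 to 4.46 in 5XFAD, above the 3.62 to 3.82 of WT, and of 3.89 to 4.38 in Trem2-/-5XFAD arrays. They did not move together. Of the 4 tested in 5XFAD against WT, 1 was higher and 2 had a positive difference, within a range of -0.09 to 2.77. Border macrophage markers ran from 4.95 to 5.55 in 5XFAD, 5.45 to 6.30 in WT, 5.88 to 6.98 in Trem2-/- and 5.75 to 6.40 in Trem2-/-5XFAD arrays. Salivary gland transcripts marked 4 arrays (WT 1, WT 2, 5XFAD 1 and 5XFAD 2, at 4.78 to 5.20 against at most 4.15 elsewhere), and neutrophil transcripts reached 5.88 in Trem2-/- 1 and 5.89 in Trem2-/-5XFAD 1. Xist signal was present in 3 of 4 WT, 3 of 4 Trem2-/-, 1 of 5 5XFAD and 0 of 6 Trem2-/-5XFAD arrays, so this signal differs between the transgenic and the other groups. The part of these differences in the results below was not tested except where a value is given with them.

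In 5XFAD microglia, 7 of 11 glycosidases were higher than in WT, while 0 of 6 sulfatases and related enzymes and 1 of 8 lysosomal membrane proteins were. Among the 39 genes tested, 12 were higher and 2 lower at a limma adjusted p under 0.05, and their median difference was 0.18 on the log2 scale. Of all 12728 genes tested, 8.23% were higher and 6.77% lower, with a median difference of -0.02. The increases were led by Gla, Glb1 and Gusb, each over 2-fold, and the decreases were Sgsh and Sort1. Ranges of WT and 5XFAD arrays did not overlap for 16 of the 39 genes (41.0%), against 13.4% of all genes tested. Without the 4 arrays with salivary gland transcripts, which leaves 2 WT and 3 5XFAD arrays, 5 genes were higher and 3 lower. The share of all genes under that setting is not given. In bulk samples such as these, more cells that express a gene and more RNA per cell cannot be told apart.

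**Figure D1:**
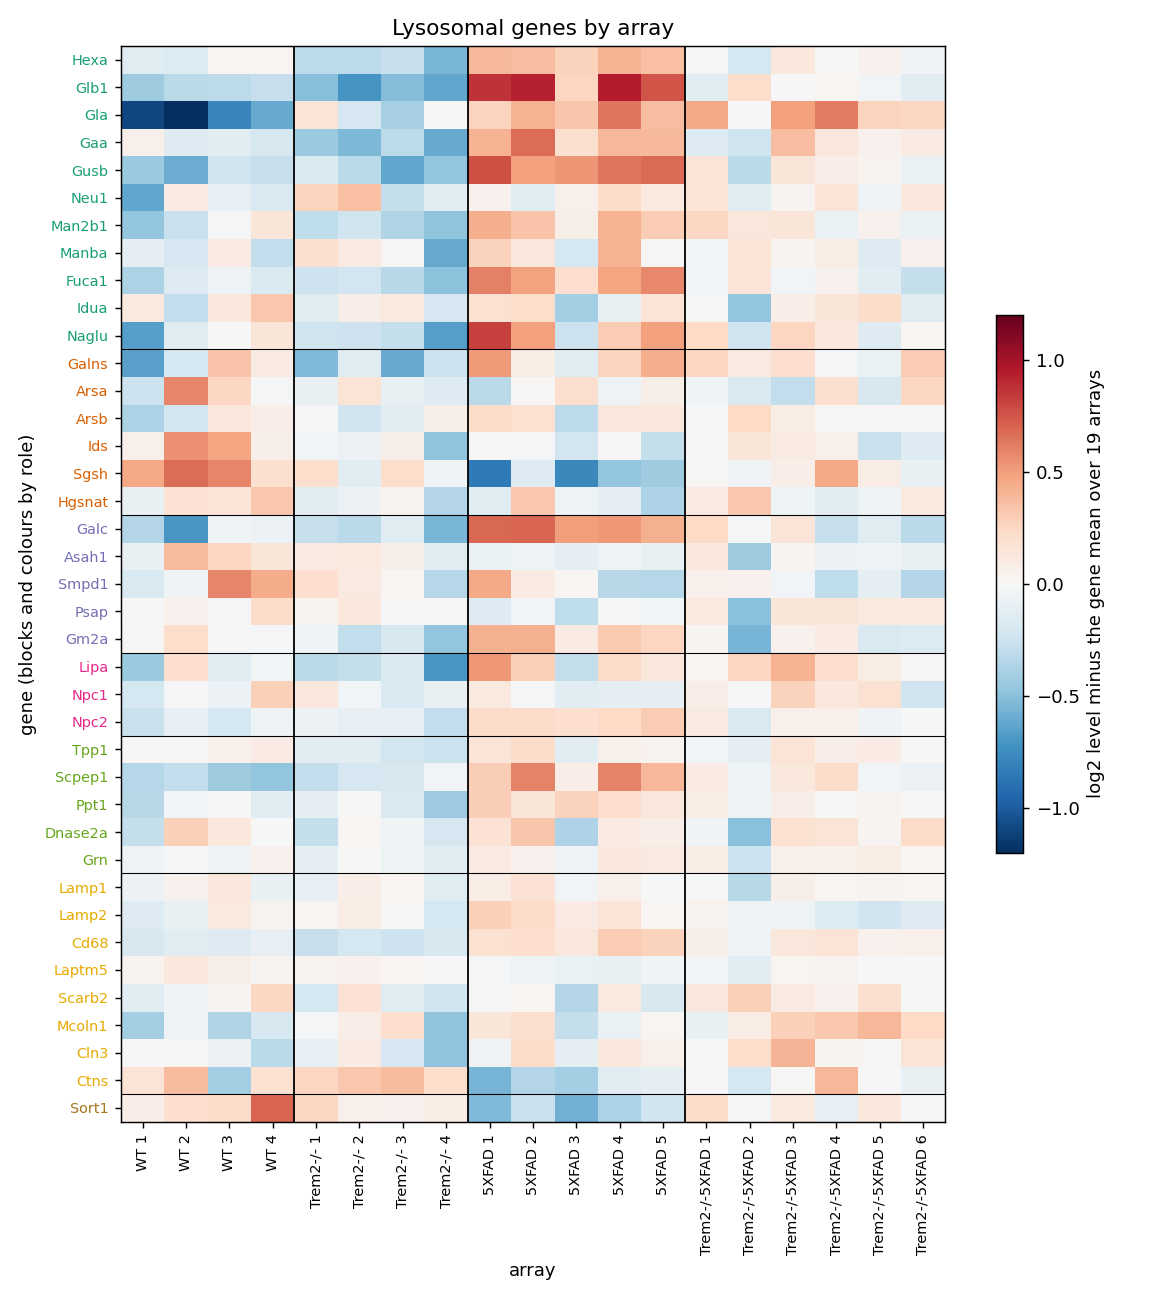
Log2 level of each of the 39 tested lysosomal genes (rows, grouped and coloured by role) in each of the 19 assigned arrays (columns), minus the mean of that gene over the arrays. The upper glycosidase block is above its mean in most 5XFAD arrays and, apart from Gla, near it in the Trem2-/-5XFAD arrays. Sgsh and Sort1 run the other way. Of the 8 genes in the membrane protein block, 1 (Cd68) was higher in 5XFAD than in WT.

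Glycosidases, which cut sugars one by one from glycoproteins, glycolipids and glycosaminoglycans, held 7 of the 12 increases. Of 11 tested, 7 were higher and 0 lower, with a median difference of 0.52. Gla encodes alpha-galactosidase A, the enzyme missing in Fabry disease, and is X-linked. It read 6.97, 6.86, 7.28 and 7.46 in the WT arrays and 8.33, 8.49, 8.40, 8.70 and 8.44 in the 5XFAD arrays. Every 5XFAD array was above every WT array, and the difference was 1.33 ± 0.15 (SE; 2.51-fold, limma adjusted p = 1.2e-06). Glb1 encodes lysosomal beta-galactosidase, which removes galactose from the ganglioside GM1. Its level was 7.82, 7.93, 7.93 and 7.97 in WT and 9.12, 9.16, 8.51, 9.19 and 8.996 in 5XFAD arrays. The 2 sets did not overlap although the third 5XFAD array stood below the other 4, and the difference was 1.08 ± 0.12 (2.12-fold, limma adjusted p = 1.6e-06). Gusb encodes beta-glucuronidase, which acts on glycosaminoglycans. The 4 WT arrays gave 8.25, 8.09, 8.45 and 8.41 and the 5 5XFAD arrays 9.45, 9.18, 9.21, 9.33 and 9.36. Again no array overlapped, and Gusb was 1.01 ± 0.12 higher (limma adjusted p = 3.2e-06).

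The other 4 increases among glycosidases were smaller. Fuca1, which removes fucose from glycoproteins, read 8.90, 9.12, 9.22 and 9.11 in WT and 9.88, 9.77, 9.48, 9.75 and 9.86 in 5XFAD arrays. These did not overlap and differed by 0.66 ± 0.11 (limma adjusted p = 2.0e-04). Hexa encodes the alpha subunit of hexosaminidase, which with the activator protein Gm2a degrades ganglioside GM2. It ran from 11.10 to 11.29 in WT and from 11.55 to 11.69 in 5XFAD arrays, a difference of 0.43 ± 0.09 (limma adjusted p = 0.00242). Gaa, the acid glucosidase that degrades glycogen, differed by 0.52 ± 0.12 (limma adjusted p = 0.00526) and Man2b1, an alpha-mannosidase, by 0.47 ± 0.12 (limma adjusted p = 0.00976), with WT and 5XFAD arrays overlapping for Man2b1 and not for Gaa. Without the 4 arrays with salivary gland transcripts these 3 calls ended, at 0.33 (limma adjusted p = 0.126) for Hexa, 0.48 (limma adjusted p = 0.0686) for Gaa and 0.21 (limma adjusted p = 0.445) for Man2b1. Gla, Glb1, Gusb and Fuca1 stayed past the threshold there, at 1.15, 0.95, 0.87 and 0.53. Of the 4 glycosidases that did not pass, Naglu, which acts on heparan sulfate, came nearest (0.54 ± 0.19, limma adjusted p = 0.0546). Neu1, a sialidase, differed by 0.27, Manba, a beta-mannosidase, by 0.25 and Idua, which removes iduronic acid, by -0.06.

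Sulfatases, which remove sulfate from glycosaminoglycans and sulfated lipids, held no increase. Together with Hgsnat, the acetyltransferase of heparan sulfate breakdown, 6 were tested, of which 0 were higher and 1 lower, with a median difference of -0.19. The lower one was Sgsh, the sulfamidase of heparan sulfate breakdown, whose loss causes Sanfilippo disease. Its level was 6.57, 6.77, 6.69 and 6.30 in WT and 5.25, 5.95, 5.33, 5.63 and 5.68 in 5XFAD arrays. No array overlapped, and Sgsh fell by 1.02 ± 0.15 (2.02-fold lower, limma adjusted p = 3.8e-05). Ids, the X-linked iduronate sulfatase, differed by -0.39 ± 0.14 with no overlap between arrays, but did not pass (limma adjusted p = 0.0606). Galns, Arsa, Arsb and Hgsnat lay between -0.21 and 0.34. The second probe set of Arsb, whose product removes sulfate from dermatan sulfate, gave a difference of 0.19 beside the 0.17 of the one used.

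Enzymes and activators of sphingolipid breakdown were divided. Of 5 tested, 1 was higher and 0 lower, with a median of -0.17. Galc encodes galactosylceramidase, which digests the main galactolipid of myelin and is missing in Krabbe disease. It read 6.38, 6.03, 6.69 and 6.67 in WT and 7.42, 7.43, 7.23, 7.25 and 7.16 in 5XFAD arrays. The arrays did not overlap and Galc was 0.85 ± 0.14 higher (limma adjusted p = 2.1e-04). Without the 4 arrays with salivary gland transcripts the difference was 0.53 (limma adjusted p = 0.0505). Asah1, the acid ceramidase, differed by -0.25, Smpd1, the acid sphingomyelinase, by -0.22, Psap, the precursor of the saposins, by -0.17 and Gm2a by 0.25, none past the threshold. Smpd1 passed without those 4 arrays, at -0.73 (limma adjusted p = 0.0127).

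Of the 3 genes of sterol and neutral lipid handling, Npc2, which takes cholesterol from the lysosome lumen to its membrane partner Npc1, was higher. It read 11.15, 11.32, 11.21 and 11.36 in WT and 11.65, 11.64, 11.62, 11.66 and 11.72 in 5XFAD arrays, which did not overlap (0.40 ± 0.09, limma adjusted p = 0.00304). Npc1 itself differed by -0.05, with a 95% interval of -0.30 to 0.19, and Lipa, the acid lipase, by 0.28 (-0.04 to 0.60). Among 5 genes of protein, acyl and DNA hydrolysis and progranulin, 2 were higher. Scpep1, a serine carboxypeptidase, read 9.16, 9.21, 9.08 and 9.03 in WT and 9.80, 10.10, 9.58, 10.10 and 9.90 in 5XFAD arrays, and was 0.78 ± 0.11 higher with no overlap (limma adjusted p = 3.1e-05). Ppt1, which removes palmitate from proteins, was 0.33 ± 0.10 higher (limma adjusted p = 0.0236). That call was lost on leaving out WT 1, 5XFAD 1 or 5XFAD 3 alone, at differences of 0.26 to 0.32 and limma adjusted p of 0.0502 to 0.0902. Grn, which encodes progranulin, Tpp1, a tripeptidyl peptidase, and Dnase2a, an acid nuclease, differed by 0.09, 0.02 and 0.03. Without the 4 arrays with salivary gland transcripts Npc2 was at 0.39 (limma adjusted p = 0.0608), Ppt1 at 0.27 (limma adjusted p = 0.249) and Scpep1 at 0.81 (limma adjusted p = 0.00175).

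Among membrane proteins, 1 of 8 was higher and 0 were lower, with a median of 0.10. Cd68, a heavily glycosylated protein of macrophage lysosomes often used to mark phagocytic microglia, read 11.77, 11.82, 11.81 and 11.87 in WT and 12.15, 12.16, 12.10, 12.27 and 12.24 in 5XFAD arrays. The arrays did not overlap, and the difference was 0.37 ± 0.08 (1.29-fold, limma adjusted p = 0.00294), or 0.36 (limma adjusted p = 0.0549) without the 4 arrays with salivary gland transcripts. Lamp1, a major glycoprotein of the lysosomal membrane, read 11.13, 11.26, 11.33 and 11.11 in WT and 11.29, 11.38, 11.17, 11.27 and 11.21 in 5XFAD arrays. These overlapped, and the difference of 0.05 had a 95% interval of -0.15 to 0.26. Lamp2, its X-linked relative, differed by 0.18 (-0.02 to 0.38). Laptm5, a lysosomal membrane protein of immune cells, differed by -0.13, Scarb2, the carrier of glucocerebrosidase, by -0.11, the calcium channel Mcoln1 by 0.25, Cln3 by 0.14 and the cystine exporter Ctns by -0.39 (limma adjusted p = 0.0775). Sort1, or sortilin, carries progranulin and other cargo to the lysosome. It read 8.43, 8.55, 8.58 and 9.05 in WT and 7.83, 8.09, 7.77, 7.97 and 8.12 in 5XFAD arrays. Every 5XFAD array was below every WT array, and Sort1 fell by 0.70 ± 0.12 (1.62-fold lower, limma adjusted p = 2.6e-04).

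For the genes that did not pass in 5XFAD against WT, the arrays bounded most differences. Of 25 such genes, 19 had a 95% interval that lay within a 1.5-fold change in either direction. They included Lamp1, Lamp2, Grn, Npc1, Psap and Tpp1. Intervals of the other 6 reached past 1.5-fold, as for Naglu (0.15 to 0.93) and Ctns (-0.69 to -0.09).

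**Figure D2:**
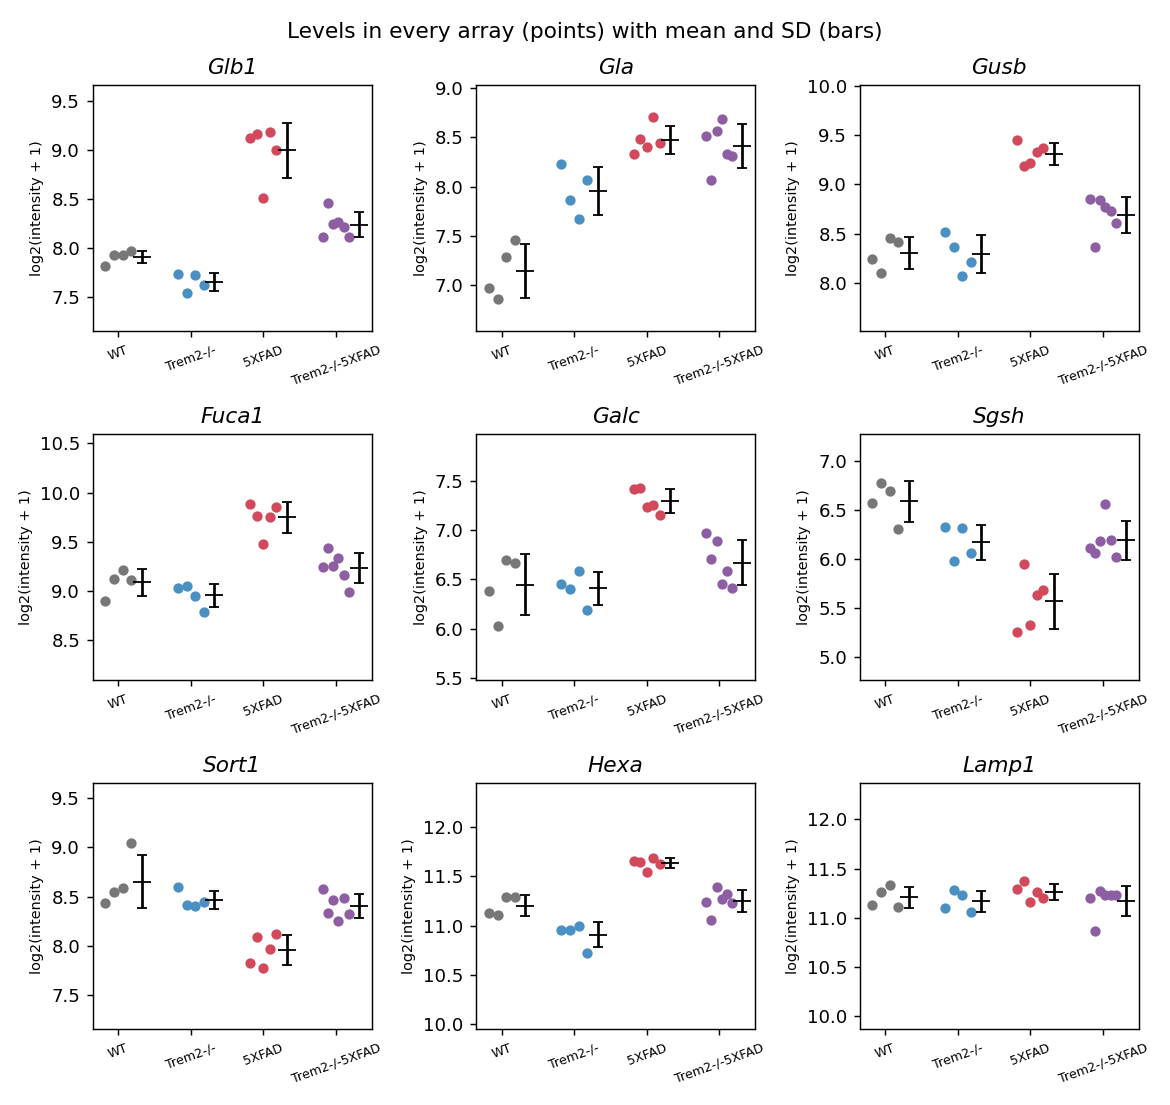
Log2(intensity + 1) in every array for 9 lysosomal genes, with arrays as points by genotype and the mean and SD as bars; each panel spans the same number of log2 units. For Glb1, Gusb, Fuca1, Galc and Hexa the 5XFAD arrays lie above all others, for Sgsh and Sort1 below all others, for Gla the WT arrays lie below all others, and for Lamp1 the groups overlap.

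Sex signal and the astrocyte marker mean differed between 5XFAD and WT arrays, while the means of neuron, oligodendrocyte and vascular markers overlapped. The comparison of 5XFAD with WT was also made with the sex signal or the brain cell markers as a covariate, and within arrays of like sex signal. The split by signal was chosen after the data were seen. With the sex signal as a covariate 16 genes passed, and with the mean of neuron, astrocyte, oligodendrocyte and vascular markers 12. Among arrays with Y-linked signal, where WT has 1 array, 4 genes were higher and 1 lower. Gla was at 1.65 and Glb1 at 1.04 (limma adjusted p = 0.0169) there. Among arrays with Xist signal, where 5XFAD has 1 array, 2 were higher and 1 lower, with Gla at 1.10 (limma adjusted p = 0.0733). A group of 1 array is assumed in these fits to vary like the other groups. The shares of all genes under these settings are not given. The counts therefore do not tell a loss confined to these genes from a general one.

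Microglia of 5XFAD mice that lack Trem2 had lower levels of several glycan- and lipid-degrading enzymes than those of 5XFAD mice with Trem2. The counts were 2 higher and 8 lower among the 39 genes, with a median difference of -0.06. Of all tested genes 3.21% were higher and 4.46% lower, with a median of 0.04. Glycosidases held 5 of the 8 decreases and sphingolipid enzymes and activators 2 (Galc and Gm2a). Scpep1 was the remaining one, and the increases were Sgsh and Sort1. This comparison shares its 5XFAD arrays with the comparison against WT, so the 2 sets of values are not independent.

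Glb1 ran from 8.12 to 8.46 in the 6 Trem2-/-5XFAD arrays, with a median of 8.23, below the lowest 5XFAD array at 8.51. The difference was -0.76 ± 0.11 (limma adjusted p = 8.9e-05). Gusb had a lowest value of 8.36, a median of 8.75 and a highest of 8.85, with all 5XFAD arrays at 9.18 or above, and differed by -0.62 ± 0.11 (limma adjusted p = 7.4e-04). Neither gene overlapped between the groups. Galc lay at 6.41, 6.65 and 6.97 (lowest, median, highest) against at least 7.16 in 5XFAD, a difference of -0.63 ± 0.13 (limma adjusted p = 0.00322). Fuca1 lay at 8.99, 9.25 and 9.43 against at least 9.48 and differed by -0.51 ± 0.10 (limma adjusted p = 0.00200). Hexa lay at 11.06, 11.26 and 11.40 against at least 11.55 and differed by -0.38 ± 0.08 (limma adjusted p = 0.00545). For these 3 genes as well, every Trem2-/-5XFAD array was below every 5XFAD array. Arrays of the 2 groups did not overlap for 9 of the 39 genes (23.1%), against 7.14% of all genes tested. The 9 include Npc2 and Ppt1, which did not pass the test. Gm2a fell by 0.43 ± 0.11 (limma adjusted p = 0.0231), Gaa by 0.37 ± 0.11 (limma adjusted p = 0.0406) and Scpep1 by 0.35 ± 0.10 (limma adjusted p = 0.0339), and for each of them the arrays of the 2 groups overlapped. These 3 calls were the ones that depended on single arrays. The Gaa call was lost on leaving out any of 10 of the 19 arrays (-0.39 to -0.31, limma adjusted p of 0.0501 to 0.132), that of Scpep1 for any of 7 (-0.36 to -0.30, 0.0511 to 0.111) and that of Gm2a without 5XFAD 1, 5XFAD 2 or Trem2-/-5XFAD 5 (-0.42 to -0.40, 0.0507 to 0.0721).

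The 2 genes that were low in 5XFAD microglia were higher without Trem2. Sgsh had a lowest value of 6.02, a median of 6.15 and a highest of 6.56 in Trem2-/-5XFAD arrays, above the highest 5XFAD array at 5.95. It was 0.62 ± 0.13 higher (limma adjusted p = 0.00431). Sort1 lay at 8.25, 8.40 and 8.58, above the highest 5XFAD array at 8.12, and was 0.45 ± 0.11 higher (limma adjusted p = 0.0105). Gla was among the 6 glycosidases that did not pass, and lay at 8.06, 8.43 and 8.69 in Trem2-/-5XFAD arrays, overlapping the 8.33 to 8.70 of 5XFAD. Its difference was -0.06 ± 0.13, with a 95% interval of -0.33 to 0.22 (limma adjusted p = 0.855). Cd68 differed by -0.15 ± 0.07 (limma adjusted p = 0.256), Npc2 by -0.24 ± 0.08 (limma adjusted p = 0.0770) and Lamp2 by -0.27 ± 0.09 (limma adjusted p = 0.0700), none past the threshold. Of the 29 genes that did not pass, 27 had a 95% interval within 1.5-fold.

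Markers of microglia, astrocytes, border macrophages and lymphocytes also differed between 5XFAD and Trem2-/-5XFAD arrays, as given above. Of 11 border macrophage markers tested, 8 were higher and 1 lower without Trem2, with a median of 0.91. Of 11 microglial markers 5 were higher and 0 lower, of 7 astrocyte markers 0 and 3, and of 4 lymphocyte markers 2 and 0. The shares of all genes tested were 3.21% higher and 4.46% lower. Of the tested neutrophil markers 9 of 9 had a positive difference, with a median of 0.77, and 0 passed the test. With the neutrophil marker mean as a covariate 2 of the 39 genes were higher and 6 lower. Microglial, lymphocyte, monocyte and border macrophage markers were not used as covariates, so their part was not tested. With the mean of the other brain cell markers as a covariate, 3 of the 10 calls remained (Glb1, Gusb and Fuca1). The Hexa, Galc, Sgsh and Sort1 calls ended at limma adjusted p of 0.0700, 0.0845, 0.0838 and 0.121, with differences of -0.41, -0.60, 0.62 and 0.47. Without Trem2-/- 1 and Trem2-/-5XFAD 1, the arrays with high neutrophil transcripts, an alternative chosen after the data were seen, 2 genes were higher and 6 lower, with Gaa and Scpep1 lost. Without the 4 arrays with salivary gland transcripts 2 were higher and 5 lower. The shares of all genes are not given beside these counts with covariates or arrays left out. After quantile normalization, under which 523 of all genes were higher and 499 lower in place of 409 and 568, 2 of these genes were higher and 4 lower. After centring each array on its median 286 of all genes were higher and 625 lower, and the members' counts were again 2 and 8.

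**Figure D3:**
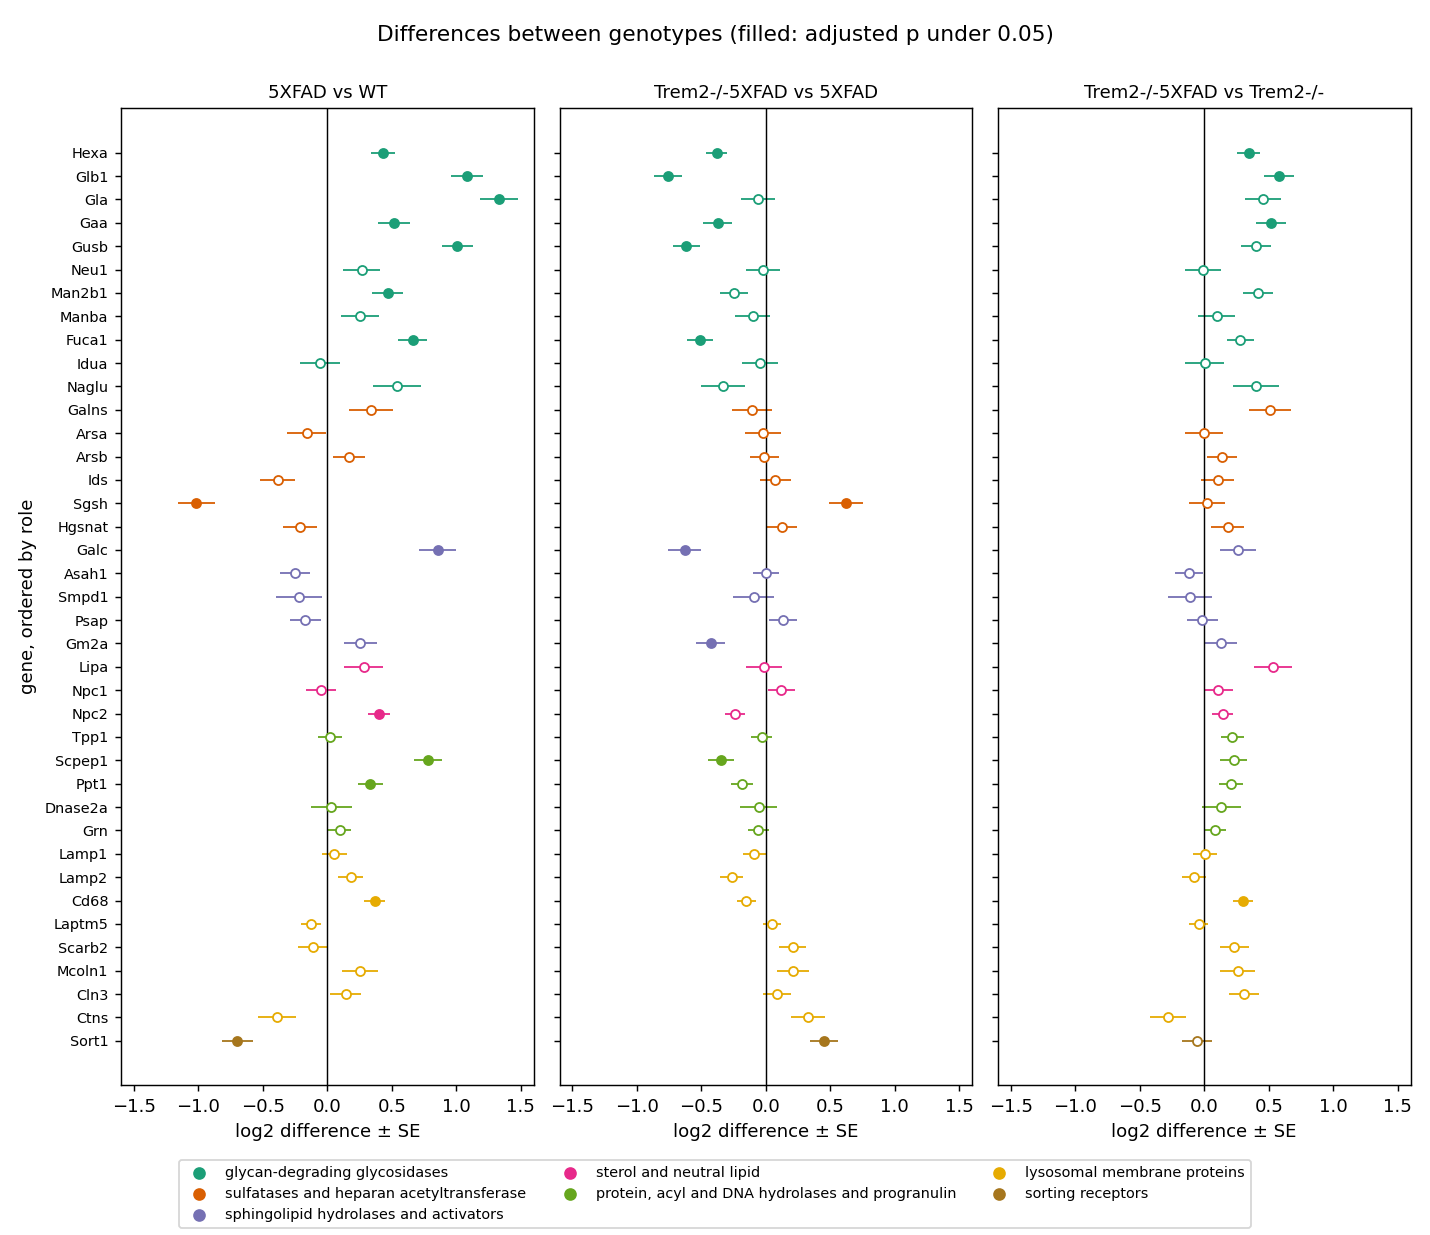
Log2 difference with its standard error for each of the 39 tested genes, ordered and coloured by role, in 5XFAD against WT, Trem2-/-5XFAD against 5XFAD and Trem2-/-5XFAD against Trem2-/- arrays; filled points passed limma's adjusted p under 0.05. Filled points number 14, 10 and 4 in the 3 panels, and the first 2 panels share the 5XFAD arrays.

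Without the transgenes, 1 gene of the set passed the test between mice with and without Trem2. In Trem2-/- against WT microglia 1 of 39 was higher and 0 lower, with a median difference of -0.11, and of all genes tested 0.385% were higher and 0.228% lower, with a median of -0.01. The gene was Gla, which read 8.23, 7.86, 7.67 and 8.07 in the Trem2-/- arrays and at most 7.46 in WT. No array overlapped, and Gla was 0.81 ± 0.15 higher (1.76-fold, limma adjusted p = 0.0153). Both groups have 3 of 4 arrays with Xist signal, and with the sex signal as a covariate the difference of this X-linked gene was 0.81 (limma adjusted p = 0.0191). The call rested on few arrays. It was lost without Trem2-/- 1 or Trem2-/- 4 (0.72 and 0.78, limma adjusted p of 0.0507 to 0.0642). It was also lost without the 4 arrays with salivary gland transcripts (0.59, limma adjusted p = 0.120) and without the 2 arrays with high neutrophil transcripts (0.72, limma adjusted p = 0.0847). With the array of conflicting labels put in WT, the difference was 0.63 (limma adjusted p = 0.213). The Gla difference was positive under each alternative run. Arrays of the 2 groups did not overlap for 6 of the 39 genes (15.4%), against 5.79% of all genes tested. Besides Gla these were genes that did not pass the test: Hexa (-0.30), Glb1 (-0.26), Gaa (-0.37), Gm2a (-0.30) and Tpp1 (-0.23), with limma adjusted p between 0.204 and 0.432. Of the 38 genes that did not pass, 31 had a 95% interval within 1.5-fold.

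In mice without Trem2, 3 glycosidases and Cd68 were higher with the transgenes. That is 4 of the 39 genes higher and 0 lower in the comparison of Trem2-/-5XFAD with Trem2-/- microglia, with a median of 0.14, and of all genes tested 1.63% were higher and 0.558% lower, with a median of 0.02. Glb1 read 7.74, 7.54, 7.72 and 7.63 in Trem2-/- arrays, all below the 8.12 of the lowest Trem2-/-5XFAD array, and was 0.58 ± 0.12 higher (limma adjusted p = 0.00905). Gaa read 7.88, 7.79, 8.01 and 7.72 against 8.08, 8.40 and 8.69 (lowest, median, highest) and was 0.52 ± 0.12 higher (limma adjusted p = 0.0213). Neither gene overlapped between the 2 groups. Hexa was 0.35 ± 0.09 and Cd68 0.30 ± 0.08 higher (limma adjusted p = 0.0445 for each), also with no overlap. The Hexa call was lost on leaving out any of 13 of the 19 arrays (0.28 to 0.37, limma adjusted p of 0.0521 to 0.132) and the Cd68 call for any of 15 (0.28 to 0.31, 0.0504 to 0.134). The Gaa call was lost for 4 (Trem2-/- 1, Trem2-/- 2, Trem2-/- 4 or Trem2-/-5XFAD 4, at 0.47 to 0.53 and 0.0518 to 0.0691), and the Glb1 call for 0. With the sex signal as a covariate 2 calls remained (Hexa and, just under the threshold, Glb1), without the 2 arrays with high neutrophil transcripts 2 (Glb1 and Gaa), and with other brain cell markers as a covariate 0, where Glb1 was at 0.55 (limma adjusted p = 0.105). Arrays of the 2 groups did not overlap for 9 of the 39 genes (23.1%), against 6.01% of all genes tested. Besides the 4 calls these were Man2b1 (0.42, limma adjusted p = 0.0627), Lipa (0.54, limma adjusted p = 0.0631), Naglu (0.40), Galns (0.51) and Tpp1 (0.22), which did not pass, while for Gusb (0.40, limma adjusted p = 0.0719) they overlapped.

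The 2 comparisons of transgenic with non-transgenic mice, with and without Trem2, share no arrays. The 4 genes that were higher without Trem2 (Hexa, Glb1, Gaa and Cd68) were all among the 12 that were higher with it, which is 100% of the shorter list and 33.3% of the longer. Of all genes tested, 165 were higher in both, which is 79.7% of the 207 higher without Trem2 and 15.8% of the 1047 higher with it. Across the 39 genes, the 2 differences had a Pearson correlation of 0.71 and a Spearman correlation of 0.77, against 0.57 and 0.41 across all 12728 genes. These are descriptions across genes that were measured on the same arrays and are not independent replicates.

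Whether the transgenic difference depended on Trem2 was tested as an interaction, the difference in mice without Trem2 minus that in mice with it. Among the 39 genes, 2 had a positive and 1 a negative interaction, with a median of -0.00, and of all genes tested 1.02% were positive and 1.58% negative, with a median of 0.03. For Sgsh the transgenic difference was -1.02 with Trem2 and 0.02 without it, an interaction of 1.04 ± 0.20 (limma adjusted p = 0.00569). For Sort1 it was -0.70 with Trem2 and -0.06 without it, an interaction of 0.64 ± 0.17 (limma adjusted p = 0.0413). For both genes each 5XFAD array was below every array of the other 3 groups. For Gla the difference was 1.33 with Trem2 and 0.46 without it, an interaction of -0.87 ± 0.20 (limma adjusted p = 0.0225), beside the 0.81 by which Trem2-/- exceeded WT. The Gla interaction was lost without Trem2-/- 1 (-0.78, limma adjusted p = 0.0597) and without the 4 arrays with salivary gland transcripts (-0.69, limma adjusted p = 0.141). It was also lost with the array of conflicting labels put in WT (-0.69, limma adjusted p = 0.191). The same held without the 2 arrays with high neutrophil transcripts (-0.80, limma adjusted p = 0.0731). That of Sort1 was lost on leaving out any of 12 of the 19 arrays (0.51 to 0.66, limma adjusted p of 0.0536 to 0.0819), and that of Sgsh for 0 of the 19. Centring each array on its median gave 1 positive and 3 negative interactions in place of 2 and 1.

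Glb1, Gusb, Galc and Scpep1 had smaller transgenic differences without Trem2, but their interactions did not pass: -0.50 (limma adjusted p = 0.139), -0.60 (0.0548), -0.59 (0.137) and -0.55 (0.0590). For Gaa, whose difference was 0.52 in both settings, the interaction was -0.00 with a 95% interval of -0.35 to 0.35. Cd68 had -0.07 (-0.30 to 0.17). Of the 36 genes whose interaction did not pass, 22 had a 95% interval within 1.5-fold, and the intervals of the others reached past it.

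**Figure D4:**
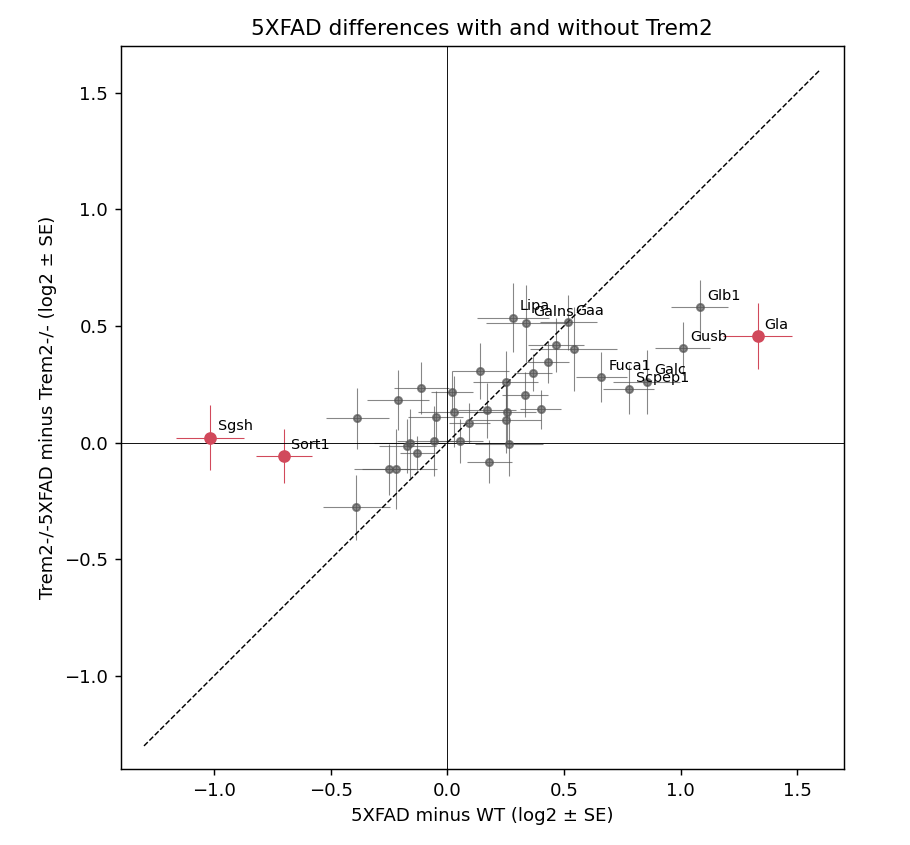
Log2 difference of Trem2-/-5XFAD against Trem2-/- arrays (vertical) plotted against that of 5XFAD against WT arrays (horizontal), each point 1 of 39 genes with standard errors; the dashed line marks equal differences and red points passed the interaction test. Sgsh, Sort1 and Gla are the 3 red points, and Glb1, Gusb, Galc and Scpep1 lie below the line.

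The counts were also set out by the promoter word. Of the 8 tested genes with GTCACGTG or CACGTGAC in a window, 2 were higher (Glb1 and Gla) and 1 lower (Sgsh) in 5XFAD than in WT microglia, with a median of 0.20. Of the 26 tested genes with a window and without the word, 10 were higher and 0 lower, with a median of 0.25. Of all genes tested, 8.23% were higher and 6.77% lower in that comparison. In Trem2-/-5XFAD against 5XFAD the counts were 1 higher and 1 lower of 8, and 0 higher and 7 lower of 26. There, 3.21% of all genes tested were higher and 4.46% lower. These are descriptions of letters in fixed windows and carry no test.

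Other lysosomal genes were counted from lists of known members. Of 54 other lysosomal genes tested, 10 were higher and 10 lower in 5XFAD than in WT, with a median of 0.02. The shares of all genes tested were 8.23% higher and 6.77% lower, and 3.21% and 4.46% in Trem2-/-5XFAD against 5XFAD. The 3 increases with the smallest p were Dpp7, a dipeptidyl peptidase (1.57 ± 0.15, limma adjusted p = 1.8e-07), Pld3, an endolysosomal nuclease (0.995 ± 0.117, limma adjusted p = 3.1e-06), and Slc15a3, a peptide transporter (0.73 ± 0.11, limma adjusted p = 6.0e-05). The 3 decreases were Acp2, an acid phosphatase (-0.80 ± 0.12, limma adjusted p = 4.6e-05), Smpdl3b, a sphingomyelinase-like phosphodiesterase (-1.08 ± 0.18, limma adjusted p = 2.2e-04), and Tmem175, a lysosomal ion channel (-0.75 ± 0.14, limma adjusted p = 7.3e-04). In Trem2-/-5XFAD against 5XFAD, 2 of the 54 were higher and 6 lower, with Dpp7 at -0.87 (limma adjusted p = 2.3e-04) and Pld3 at -0.52 (limma adjusted p = 0.00322). In Trem2-/-5XFAD against Trem2-/-, 2 of the 54 were higher, Dpp7 at 0.86 and Pld3 at 0.66, and 0 were lower. Of all genes tested 1.63% were higher and 0.558% lower there. Of 11 tested cathepsins, the main lysosomal proteases, 5 were higher and 1 lower in 5XFAD than in WT, and 0 higher and 1 lower in Trem2-/-5XFAD than in 5XFAD. Of 19 subunits of the proton pump that acidifies the lysosome, the counts were 4 higher and 1 lower, and 0 higher and 2 lower.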

How the data were processed

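The authors deposited one table of intensity, on a linear scale, for 24679 probe sets and 20 one-colour arrays. How it was summarised and normalized, and on which genome build, was not given in the sources used. Column medians of 25.7 to 28.6 show a common scale. The number of arrays limits the precision. Values were transformed as log2(intensity + 1), which understates folds of weak genes, and levels are not compared between probe sets. A gene was tested if it exceeded the array's 40th percentile on at least 4 of 19 arrays. Gene names came from the platform annotation, and promoter sequences from RefSeq (GRCm38.p6). One limma model (version 3.58.1, R 4.3.3) was fitted to all 4 groups, with Benjamini-Hochberg adjustment over all 12728 genes; "higher", "lower" and "passed" mean an adjusted p below 0.05. The procedure was tested on simulated data. Any member could be named; of other lysosomal genes, the 3 called with the smallest p in each direction in 5XFAD vs WT. The members and lists were chosen with earlier results of these data known. Numbers in the sample titles are not stated to pair animals. Deviations of same-numbered arrays from their group means had correlations of -0.10 to 0.17 over 25 pairs, 5 above 0.1. For WT with 5XFAD, arrays numbered 1 to 4 gave 0.10, 0.16, 0.09 and 0.17. Salivary gland transcripts also marked arrays 1 and 2 of both groups. Whether same-numbered arrays shared their handling is not stated and was not tested. Alternatives covered scaling, filter, pseudocount, probe sets, covariates, arrays left out, and placement of the array with conflicting labels.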

Additional observations from a re-analysis of the deposited data

Results flagged for a closer look

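For 3 genes the transgenic difference itself differed between mice with and without Trem2 by limma's interaction test: Gla (-0.87), Sgsh (1.04) and Sort1 (0.64).

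In 11 of 156 sets of arrays (39 genes in 4 groups), 1 array stood apart from the others of its group by Dixon's criterion, which chance alone meets in about 1 of 20 sets. In Trem2-/- 4, Hexa was 10.72 against a nearest value of 10.96, Naglu 6.93 against 7.30 and Npc2 11.12 against 11.32. In Trem2-/-5XFAD 2, Psap was 10.81 against 11.42, Grn 12.11 against 12.40 and Lamp1 10.87 against 11.20. In 5XFAD 3, Glb1 was 8.51 against 8.996 and Arsb 9.90 against 10.35. In Trem2-/-5XFAD 4 the array was on the high side, with Sgsh at 6.56 against 6.19 and Ctns at 8.15 against 7.76, and in WT 2 Gm2a was 10.40 against 10.20. Trem2-/- 4 and WT 2 were also the only arrays of their groups with Y-linked signal (6.26 and 5.93). The part of sex signal in these values was not tested.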

How the results depend on the processing

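The counts below are of the 39 genes past the threshold, and 0 of these genes' calls reversed direction. The shares of all genes under the same settings are not given here. Such counts do not tell a loss confined to these genes from a general one. In 5XFAD vs WT 14 passed, 8 without the 4 arrays with salivary gland transcripts, 5 among arrays with Y-linked signal and 3 among arrays with Xist signal; leaving out 1 array gave 13 to 16. In Trem2-/-5XFAD vs 5XFAD 10 passed, 6 after quantile normalization and 3 with other brain cell markers as a covariate; leaving out 1 array gave 7 to 10. In Trem2-/- vs WT 1 passed and 0 with the conflicting array in WT, only the compared groups fitted, neutrophil or other brain cell markers as covariates, the salivary or neutrophil arrays left out, or arrays of 1 sex signal; leaving out 1 array gave 0 to 1. In Trem2-/-5XFAD vs Trem2-/- 4 passed, 7 with trended and robust moderation, 2 with centred arrays, sex signal or neutrophil markers as a covariate, or without the 2 arrays with high neutrophil transcripts, and 0 with brain cell markers as a covariate or among arrays with Y-linked signal; leaving out 1 array gave 1 to 6. Of interactions 3 passed, 5 with a pseudocount of 16, the stricter filter, trended moderation or the conflicting array in Trem2-/-, 1 without the neutrophil arrays and 0 among arrays with Y-linked signal; leaving out 1 array gave 2 to 4. With the replicate block the 5 counts were 14, 7, 1, 1 and 2. Calls kept under every alternative run were Glb1, Gusb and Sgsh (3 of 14) in 5XFAD vs WT, Glb1, Gusb and Fuca1 (3 of 10) in Trem2-/-5XFAD vs 5XFAD, and 0 in the other comparisons. Apart from fewer arrays or genes, the cause of these shifts was not tested.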

Other observations

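The array with a WT title and a Trem2-/- genotype, which entered no group, had Trem2 at 11.08. This was near the 11.14 to 11.39 of the WT arrays and far above the 6.84 to 7.02 of the Trem2-/- arrays, so the array expressed Trem2. Its Gla level was 8.05, within the 7.67 to 8.23 of the Trem2-/- arrays and above the 6.86 to 7.46 of the WT arrays. Its Glb1 level was 7.66, within the 7.54 to 7.74 of Trem2-/- and below the 7.82 to 7.97 of WT. Beside Trem2, only Gla and Glb1 are given for this array, and other genes of the set need not follow them. Whether these levels follow from the Trem2 genotype was not tested. With this array counted as WT, Gla in Trem2-/- against WT differed by 0.63 and did not pass (limma adjusted p = 0.213).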
